A study of Mus musculus with 5 samples.

Results

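MHC class I antigen presentation was examined through 10 genes in bulk RNA-seq of dermal group 2 innate lymphoid cells (dILC2s). The genes were taken by symbol, as the rows of the gene count table named *H2-K1*, *H2-D1*, *H2-T23*, *B2m*, *Tap1*, *Tap2*, *Tapbp*, *Psmb8*, *Psmb9* and *Nlrc5*. Each had 1 row, giving 10 of the 47729 genes in the table, and all 10 passed the filter on low counts. Class I molecules carry short peptides from inside the cell to its surface, where CD8 T cells and natural killer cells read them. A heavy chain pairs with the light chain β2-microglobulin. Proteasomes cut proteins into peptides, the TAP transporter moves those peptides into the endoplasmic reticulum, and tapasin holds the empty class I molecule at TAP while it is loaded. Interferons raise the genes of this pathway in most cells, including the inducible proteasome subunits that replace constitutive ones.

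The study set dILC2s of *Rag1*-deficient mice against those of wild-type (WT) mice, both C57BL/6. *Rag1* encodes an enzyme of antigen receptor gene rearrangement, so mice without it lack mature T and B cells. Cells were taken from ear skin as live CD45+ CD90hi cells without CD2 or CD3 signal and were not stimulated in culture. The mice were females of 8 to 13 weeks. The WT group held 3 pools of mice, numbered 5, 6 and 13, and the *Rag1*-/- group held 2, numbered 2 and 7. The labels give 30 WT mice and 16 *Rag1*-/- mice in all, while the methods give 10 mice per WT pool and 9 per *Rag1*-/- pool. For the libraries labelled *Rag1*-/- the labels name the cells as type 3 innate lymphoid cells, although the series describes all of them as dILC2s. Each pool counted as 1 replicate.

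The libraries held 38796193, 39477243 and 32939428 counts in the WT pools, and 8050562 and 38922750 in pools 2 and 7 labelled *Rag1*-/-. *Rag1* itself had 4, 0 and 5 counts in the WT pools against 5 and 48 in the pools labelled *Rag1*-/-, which is not lower in the latter (log2 fold change 3.53, adjusted p = 0.0866, edgeR's quasi-likelihood test with Benjamini-Hochberg adjustment). The WT counts were near a floor of 3 counts, so a lower level could hardly have been seen. The position of the deletion within the transcript was not given in the sources used here. The counts therefore do not decide about the labels, and the group is named here by its label. The defining markers of the labelled cell were present in every library. *Ptprc*, the CD45 gene, was at 122 to 421 CPM (a gene's counts scaled to a library total of 1e+06) in WT and 623 to 1177 CPM in libraries labelled *Rag1*-/-, and *Gata3*, the transcription factor of group 2 cells, was at 199 to 319 CPM against 369 to 558 CPM. The keratinocyte markers *Krt5* and *Krt14* were abundant in all 5 libraries. *Krt5* was at 5019 to 6091 CPM in WT and 1632 to 2731 CPM in libraries labelled *Rag1*-/-. *Krt14* was at 5108 to 6118 CPM against 1792 to 3049 CPM. Neither overlapped between the groups, and 24% of all genes tested were likewise lower without overlap.

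With scaling over all genes, 5 transcripts passed the test and rose by 2.25-fold to 2.87-fold in the libraries labelled *Rag1*-/-. They were those of both classical heavy chains, β2-microglobulin, the nonclassical heavy chain *H2-T23* and the inducible proteasome subunit *Psmb8*. With scaling on leukocyte genes their direction turned to lower, and none of the 5 passed (adjusted p = 0.213 to 0.441, edgeR). *Psmb9*, *Tap1*, *Tap2*, *Tapbp* and *Nlrc5* did not pass the test with scaling over all genes. A gene was called where its adjusted p was under 0.05 in edgeR's quasi-likelihood test and its fold change was over 2 in either direction, that is 1 on the log2 scale. By this rule 5 of the 10 genes were called higher and 0 lower, against 3.57% of all 19011 genes tested called higher and 2.16% called lower (5.73% in either direction). All 10 log2 fold changes were above 0, with a median of 1.14 against 0.02 over all genes. For 9 of the 10, every library labelled *Rag1*-/- lay above every WT library, which held for 21.9% of all genes tested.

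*H2-K1* and *H2-D1* encode the classical heavy chains that present peptides to CD8 T cells, on chromosome 17. In the GRCm38 coordinates of the count table, 8 of the 10 genes lie on that chromosome between 33915899 and 36032855, with *H2-K1* at chr17:33996017-34000333 and *H2-D1* at chr17:35262730-35267499. *H2-K1* was at 736, 770 and 641 CPM in WT pools 5, 6 and 13 and at 1765 and 1708 CPM in pools 2 and 7 labelled *Rag1*-/-. This gave a log2 fold change of 1.31 (SE 0.219, adjusted p = 0.0307, edgeR). *H2-D1* was at 727, 732 and 706 CPM in WT and at 1573 and 1842 CPM in pools labelled *Rag1*-/-, a log2 fold change of 1.28 (SE 0.219, adjusted p = 0.0309, edgeR). Both libraries labelled *Rag1*-/- exceeded the highest WT library for both genes. *B2m*, at chr2:122147686-122153083, encodes the light chain that every class I heavy chain needs. It was at 652, 667 and 769 CPM in WT and at 1649 and 1783 CPM in pools labelled *Rag1*-/-, a log2 fold change of 1.34 (SE 0.218, adjusted p = 0.0306, edgeR). The groups did not overlap for *B2m* either. Set against the light chain in the same library, the ratio of *H2-K1* to *B2m* in CPM was 1.13, 1.16 and 0.834 in WT against 1.07 and 0.958, and that of *H2-D1* to *B2m* was 1.12, 1.10 and 0.918 against 0.954 and 1.03, so that the groups overlapped in both.

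*H2-T23* encodes Qa-1, a nonclassical heavy chain recognised by the inhibitory receptor CD94/NKG2A. It was at 71.8, 75.7 and 69.4 CPM in WT pools and at 143 and 175 CPM in pools labelled *Rag1*-/-. The log2 fold change was 1.17 (SE 0.19, adjusted p = 0.0306, edgeR), with no overlap between groups. The heavy chain genes resemble each other, and 9.63% of the distinct 50-base stretches in *H2-K1* transcripts, 12.8% in *H2-D1* and 14.5% in *H2-T23* also occur in transcripts of other genes, against 0% in *B2m*. How reads that match several genes were counted was not given in the sources used here, so the values of the heavy chains are less certain than that of *B2m*.

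**Figure D1:**
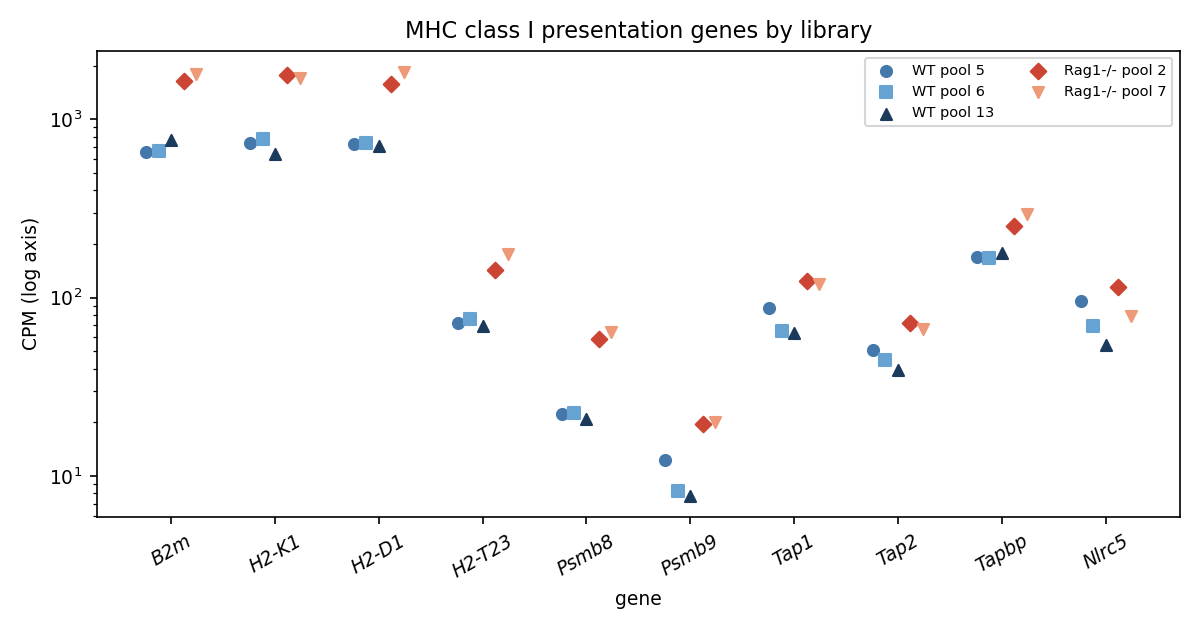
CPM (log axis) of the 10 class I genes in each library, with 3 WT pools and 2 pools labelled Rag1-/-; each point is 1 library. For every gene but Nlrc5, both Rag1-/- points lie above every WT point, while relative to leukocyte genes none of the 10 was above all WT libraries.

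The promoters of the 3 most abundant of these genes hold a shared arrangement that is printed here because all 3 genes rose. RefSeq promoter windows, from 250 bases before to 50 after a start site on GRCm38.p6, were matched for 8 of the 10 genes, and *Tap2* and *Nlrc5* had none. In the 30-base stretches below, read 5′ to 3′ on the gene's strand, capitals mark the letters TGACG, a partial cAMP response element at the start, and a CCAAT box read on the other strand at the end, set 20 bases apart.

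H2-K1: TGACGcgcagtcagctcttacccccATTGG

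H2-D1: TGACGcgctggcaggtctcactatcATTGG

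B2m: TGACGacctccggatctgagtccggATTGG

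The stretches lie at chr17:34000359-34000388 on the minus strand, chr17:35262993-35263022 on the plus strand and chr2:122147609-122147638 on the plus strand. This arrangement was found in 31 of all 32841 windows (0.0944%), among them 1 further class I gene, *H2-M3*. It was looked for after these windows had been read. Both classical heavy chain genes also hold the kappaB palindrome GGGATTCCC, found in 0.353% of windows, and 10 bases after its end a run of 10 letters that was found in 0.14% of windows and was likewise chosen after reading. Capitals mark both runs in the next pair.

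H2-K1: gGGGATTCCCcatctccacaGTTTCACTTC

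H2-D1: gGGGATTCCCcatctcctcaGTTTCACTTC

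These stretches, at chr17:34000429-34000458 and chr17:35262923-35262952, were identical at 29 of 30 bases, while the pair of TGACG stretches of the same genes was identical at 23 of 30. In the GENCODE M21 annotation the *H2-D1* stretches overlap an exon of *H2-D1* but no coding sequence, and those of *H2-K1* and *B2m* lie outside the gene. The interferon-stimulated response element core was taken as GAAA repeated after any 2 bases, present in 3.44% of windows on either strand. This exact pattern was found in *B2m* and *H2-T23*. The run after the kappaB palindrome in *H2-K1* and *H2-D1* was searched as class I letters of this element and does not match that pattern. The gamma-interferon activation site TTCNNNGAA, present in 8.3%, was found in *Psmb8*. Capitals mark these matches, which are shown because each gene passed the test.

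B2m: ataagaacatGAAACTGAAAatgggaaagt

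H2-T23: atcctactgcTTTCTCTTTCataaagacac

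Psmb8: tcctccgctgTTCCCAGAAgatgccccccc

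They lie at chr2:122147538-122147567 on the plus strand, chr17:36032806-36032835 on the minus strand, where the match is read on the other strand and overlaps an exon of *H2-T23*, and chr17:34198088-34198117 on the plus strand, overlapping an exon of *Psmb8*. Neither overlaps coding sequence. CCAAT was found in 7 of the 8 genes (not in *Psmb8*) and in 37.4% of all windows, and the full palindrome TGACGTCA in none of the 8 and in 1.79% of windows. A match describes letters only and is no measure of binding.

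*Psmb8* and *Psmb9* encode the inducible proteasome subunits β5i and β1i. *Psmb8* was at 22.1, 22.7 and 20.8 CPM in WT and at 58.5 and 64.1 CPM in pools labelled *Rag1*-/-. It had the highest log2 fold change of the 10 genes, 1.52 (SE 0.181, adjusted p = 0.0306, edgeR), and its WT libraries lay within 1.09-fold of each other. *Psmb9* was at 12.3, 8.23 and 7.74 CPM in WT and at 19.6 and 19.96 CPM in pools labelled *Rag1*-/-, a log2 fold change of 1.10 (SE 0.276) that did not pass the test (adjusted p = 0.0614, edgeR). The groups did not overlap for *Psmb9*, but the WT libraries spanned 1.59-fold. *Psmb9* passed with DESeq2 (log2 fold change 1.06, adjusted p = 0.0113). DESeq2 called 6 of the 10 genes higher, against 7.22% of 16571 genes.

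The inducible subunits were then set against the constitutive subunits they replace, as ratios within a library that do not depend on scaling between libraries. *Psmb8* to *Psmb5*, the β5 pair, was 0.854, 0.914 and 0.848 in WT and 3.68 and 1.96 in pools labelled *Rag1*-/-. *Psmb9* to *Psmb6*, the β1 pair, was 0.130, 0.0878 and 0.0782 in WT and 0.250 and 0.155 in pools labelled *Rag1*-/-. *Psmb10* to *Psmb7*, the β2 pair, was 0.184, 0.213 and 0.160 in WT and 0.435 and 0.330 in pools labelled *Rag1*-/-. In each of these 3 ratios both libraries labelled *Rag1*-/- were above all WT libraries, with pool 2 the higher. The log2 differences were 1.62, 1.03 and 1.04, with exact two-sided permutation p = 0.1, 0.2 and 0.1 (0.15, 0.2 and 0.15 after Benjamini-Hochberg adjustment over 3 ratios). With 10 possible splits of 3 against 2 libraries, 0.1 is the smallest p the design allows. Without *Rag1*-/- pool 2 the *Psmb8* to *Psmb5* difference was 1.17 and without pool 7 it was 2.08. The constitutive subunits overlapped between groups, with log2 fold changes of 0.01 for *Psmb5*, 0.16 for *Psmb6* and 0.04 for *Psmb7* (adjusted p = 0.986, 0.750 and 0.950, edgeR). *Psmb5* was at 15.9 CPM in pool 2 and 32.8 CPM in pool 7, below and above its levels in the WT pools, which were 25.9, 24.8 and 24.5 CPM. The same held for *Psmb6*, at 78.6 and 129 CPM against 93.7 to 99.0 CPM, and for *Psmb7*, at 53.2 and 103 CPM against 70.1 to 85.4 CPM. The denominators of all 3 ratios were thus lowest in pool 2, the library with the highest ratios, and its part in the differences was not tested. In *Psmb5*, 54.1% of the distinct 50-base stretches also occur in other transcripts, so its level is uncertain.

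**Figure D2:**
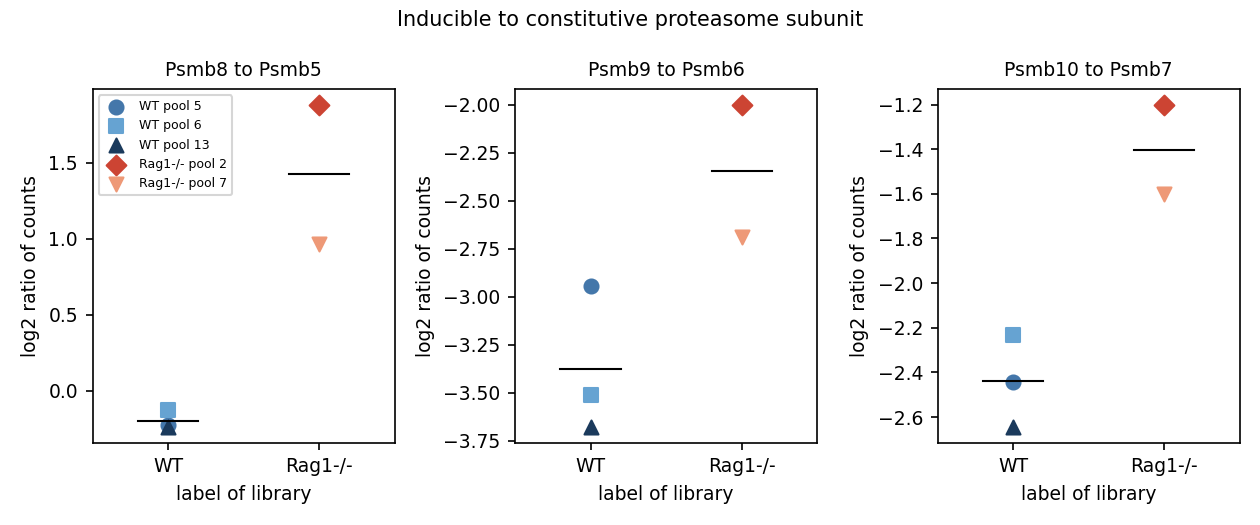
Ratio of each inducible proteasome subunit to the constitutive subunit it replaces, per library, on a log2 axis; points are libraries and bars are group means. Both Rag1-/- libraries lie above the 3 WT libraries for each pair.

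Over the whole constitutive core, 14 genes were tested and 0 were called in either direction, against 5.73% of all genes tested. The median log2 fold change of the core was 0.09. None of the 14 separated the groups, while 21.9% of all genes tested were higher and 24% lower without overlap. DESeq2 also called 0, and 0 of the 14 had an unadjusted p under 0.05 with edgeR, against 26.4% of all genes tested. Of 6 partners of the inducible proteasome, 0 were called by edgeR or DESeq2, and 2 had an unadjusted p under 0.05 with edgeR. Among them *Psmb10*, the β2i subunit, had a log2 fold change of 1.03 (adjusted p = 0.0520, edgeR). *Psme1* and *Psme2*, which encode the PA28 cap that interferon gamma induces, had 0.53 (adjusted p = 0.171) and 0.39 (adjusted p = 0.341).

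*Tap1* and *Tap2* encode the paired subunits of the peptide transporter, and *Tapbp* encodes tapasin. *Tap1* was at 87.6, 64.6 and 63.5 CPM in WT and at 124 and 119 CPM in pools labelled *Rag1*-/-, a log2 fold change of 0.79 (SE 0.208, adjusted p = 0.0684, edgeR). *Tap2* was at 51.0, 44.8 and 39.2 CPM in WT and at 72.2 and 67.0 CPM in pools labelled *Rag1*-/-, a log2 fold change of 0.66 (SE 0.192, adjusted p = 0.0868, edgeR). *Tapbp* was at 169, 167 and 177 CPM in WT and at 251 and 295 CPM in pools labelled *Rag1*-/-, a log2 fold change of 0.71 (SE 0.19, adjusted p = 0.0718, edgeR). The groups did not overlap for any of the 3, yet none passed the adjusted threshold with edgeR. With DESeq2 *Tap1* (adjusted p = 0.0290) and *Tapbp* (adjusted p = 0.0240) passed it but not the fold threshold, and *Tap2* did not (adjusted p = 0.0611). Whether their change differed from that of the heavy chains was not tested. *Tap1* and *Psmb9* lie head to head on opposite strands of chromosome 17. Their RefSeq start sites, at 34187556 for *Tap1* and 34187330 for *Psmb9*, are 225 bases apart. In the GENCODE M21 annotation *Psmb9* reaches to 34187764, past the start of *Tap1* at 34187553. In that annotation the genes share 212 exon bases, which are 3.87% of *Tap1* and 5.79% of *Psmb9* exons. Antisense transcripts cover 24.9% of *Tapbp* exon bases (*Gm19412*), 14.7% of *Psmb8* (*Gm20496*) and 14.1% of *Tap2* (*Gm15821*). The library kit did not mark strand, so reads of these partners cannot be told apart there.

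*Nlrc5*, at chr8:94472763-94527272, encodes the transactivator of class I genes, which acts at their promoters. It was at 95.9, 69.6 and 54.1 CPM in WT and at 114 and 79.3 CPM in pools labelled *Rag1*-/-. *Nlrc5* was the gene of the 10 whose groups overlapped, and its log2 fold change of 0.43 (SE 0.28) did not pass the test (adjusted p = 0.388, edgeR). It also varied most among the WT libraries, by 1.77-fold, against 1.04-fold for *H2-D1*. In the WT group *Nlrc5*, *Tap1*, *Tap2* and *Psmb9* were each highest in pool 5 and lowest in pool 13. Pool 5 also held the most keratinocyte and the least leukocyte RNA of the WT libraries, at 48335 CPM and 1605 CPM summed over the marker lists given further on.

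**Figure D3:**
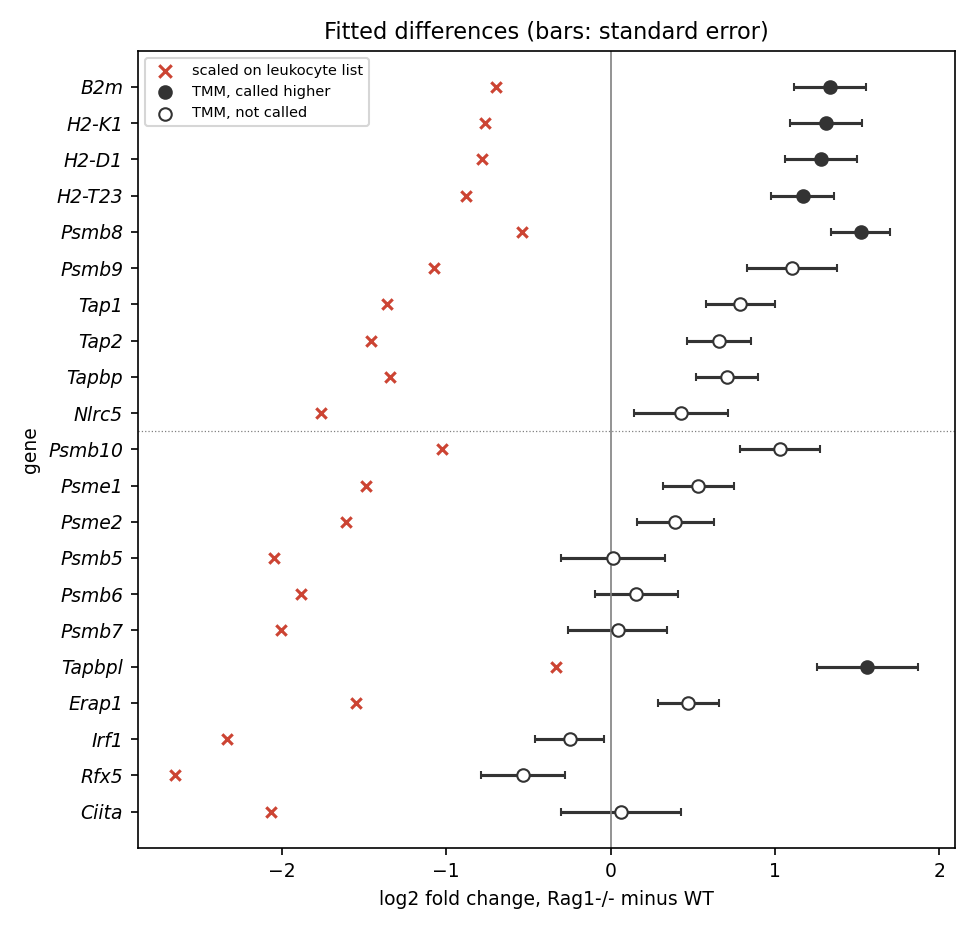
Fitted log2 fold changes (Rag1-/- minus WT) with standard errors for the 10 class I genes above the dotted line and other genes of the pathway below it; filled circles passed the thresholds with scaling over all genes (TMM, the trimmed mean of M-values), and red crosses are the same fit scaled on leukocyte genes. The 10 circles run from 0.43 to 1.52, and the crosses of the same genes from -1.76 to -0.54.

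Apart from the ratios within a library, which were not corrected for length, levels were compared between genes only per kilobase. The length was that of the longest protein-coding transcript with a consensus coding sequence. In WT, *B2m* stood highest at 809 ± 74.0 CPM per kilobase (SD, n = 3), then *H2-K1* at 442 ± 41.2 and *H2-D1* at 343 ± 6.62. *Tapbp* followed at 59.0 ± 1.91 and *H2-T23* at 49.1 ± 2.17, and then *Tap1* at 24.4 ± 4.60. The lowest 4 were *Psmb8* at 13.4 ± 0.592, *Tap2* at 13.1 ± 1.72, *Nlrc5* at 9.66 ± 2.79 and *Psmb9* at 6.98 ± 1.86. In this order *Psmb8* and *Tap2* did not differ beyond their spread. The ranges of *Nlrc5* and *Psmb9* overlapped, although *Nlrc5* was the higher in each of the 3 libraries. In the libraries labelled *Rag1*-/- (n = 2) *B2m* was at 1995 ± 110 CPM per kilobase, *H2-K1* at 1073 ± 24.9 and *H2-D1* at 812 ± 90.6. There *Psmb8*, at 37.6 ± 2.41, stood above *Tap2*, at 20.2 ± 1.07, and *Psmb9*, at 14.6 ± 0.177, was within the spread of *Nlrc5*, at 12.8 ± 3.27.

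Other class I heavy chains were taken from a list of 23, of which 22 had a row and 15 were tested. In this list 4 were called higher and 0 lower, against 3.57% and 2.16% of all genes tested. The list's median log2 fold change was 0.84 and turned to -1.16 with scaling on leukocyte genes. *H2-Q7*, which encodes a Qa-2 chain, was at 26.5, 23.3 and 14.4 CPM in WT and at 125 and 74.8 CPM in pools labelled *Rag1*-/-, a log2 fold change of 2.25 (adjusted p = 0.0306, edgeR). *H2-Q6* was at 41.2, 44.5 and 22.8 CPM in WT and at 261 and 134 CPM, a log2 fold change of 2.47 (adjusted p = 0.0306, edgeR). *H2-T10* rose by 1.60 on the log2 scale (adjusted p = 0.0368, edgeR) and *H2-M3*, which presents formylated peptides, by 1.41 (adjusted p = 0.0306, edgeR). Of the distinct 50-base stretches, 35.0% in *H2-Q6*, 26.5% in *H2-Q7* and 50.4% in *H2-T10* occur in other transcripts, so the first 3 are uncertain as single genes, while the share in *H2-M3* was 0.576%.

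Peptide loading and trimming was represented by 10 tested genes, of which 1 was called higher and 0 lower, against 3.57% and 2.16% of all genes tested. The list's median log2 fold change was 0.52 and turned to -1.51 with scaling on leukocyte genes. The called gene was *Tapbpl*, encoding the tapasin-related peptide editor TAPBPR, at 34.6, 69.3 and 64.4 CPM in WT and at 157 and 167 CPM in pools labelled *Rag1*-/- (log2 fold change 1.56, SE 0.307, adjusted p = 0.0369, edgeR). *Erap1*, which trims peptides in the endoplasmic reticulum, had a log2 fold change of 0.47 (adjusted p = 0.162, edgeR).

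Of 23 class I regulators and interferon signalling genes, 4 were called higher and 0 lower, against 3.57% and 2.16% of all genes tested. The list's median log2 fold change was 0.41 and turned to -1.65 with scaling on leukocyte genes. *Socs1*, an interferon-induced inhibitor of JAK signalling, was at 20.5, 30.5 and 23.2 CPM in WT and at 77.3 and 84.2 CPM in pools labelled *Rag1*-/- (log2 fold change 1.74, adjusted p = 0.0306, edgeR). Both interferon gamma receptor chains passed as well, *Ifngr1* with a log2 fold change of 1.63 (adjusted p = 0.0489, edgeR) and *Ifngr2* with 1.21 (adjusted p = 0.0368, edgeR). The call of *Ifngr1* was lost with relative log expression scaling (1.60, adjusted p = 0.0505, edgeR). *Irf1*, an activator of class I promoters, did not pass and was at 266, 241 and 239 CPM in WT and at 181 and 227 CPM in pools labelled *Rag1*-/- (-0.25, adjusted p = 0.504, edgeR). *Rfx5*, a subunit of the factor that NLRC5 works through, had -0.53 (adjusted p = 0.239, edgeR), and *Ciita*, the class II transactivator, had 0.06 (adjusted p = 0.940, edgeR).

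**Figure D4:**
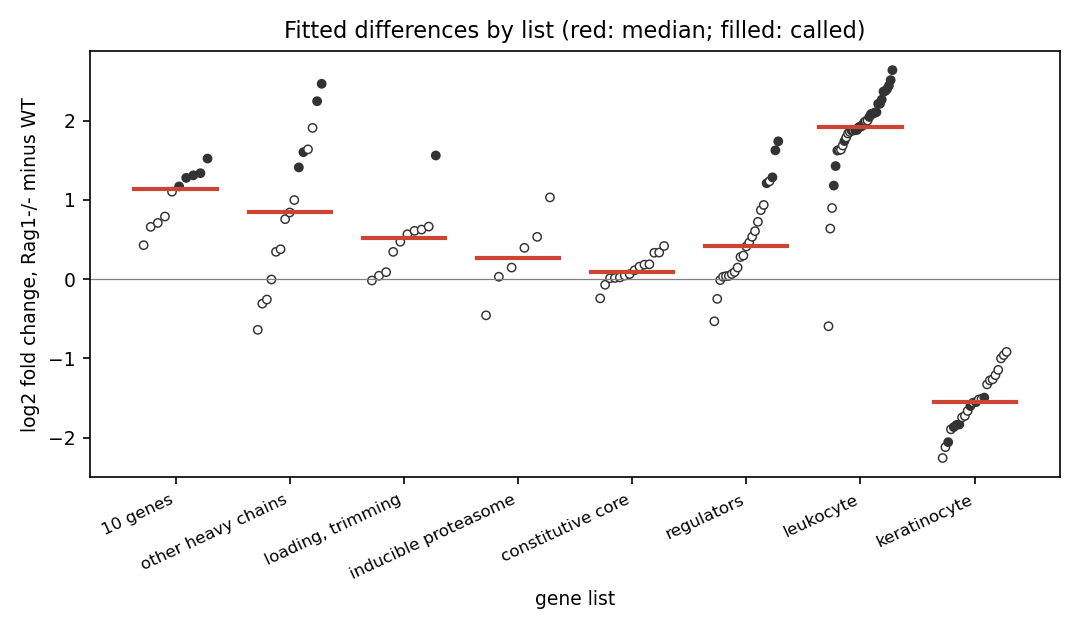
Log2 fold changes (Rag1-/- minus WT) of the tested genes of each pathway list and of the leukocyte and keratinocyte lists, 1 point per gene, with the median of each list as a red line; filled points were called. The median of the 10 class I genes is 1.14 and that of the constitutive proteasome core is 0.09, and with scaling on leukocyte genes they are -0.98 and -1.97.

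Markers of some cell types also differed between the groups, some higher and others lower. Over all genes tested, edgeR called 3.57% higher and 2.16% lower. In a list of 37 tested leukocyte genes, 25 were called higher and 0 lower, with a median log2 fold change of 1.93. The summed level of that list was 1605 to 3526 CPM in WT and 9573 to 11015 CPM in libraries labelled *Rag1*-/-. In 24 keratinocyte genes, 7 were called lower and 0 higher, with a median of -1.56 and summed levels of 34073 to 48335 CPM against 8541 to 19824 CPM. In bulk RNA, fewer cells of a type and less RNA per cell cannot be told apart. Of 20 ILC2 genes 7 were called higher and 0 lower (median 1.84), of 14 T cell genes 6 and 0 (1.57), of 14 natural killer and ILC1 genes 5 and 0 (2.33), and of 12 ILC3 genes 5 and 1 (2.21). No gene was called by edgeR among 16 myeloid and Langerhans, 12 fibroblast, 12 endothelial and 10 mast cell genes, with medians of 0.18, -0.15, -0.48 and -0.60 (DESeq2 called 1 lower, none, 1 lower, and 1 higher with 2 lower). At an unadjusted p under 0.05, edgeR had 1, 0, 2 and 3 genes of these lists, beside 26.4% of all genes tested. *Cd3e* was at 5.46 to 7.98 CPM in WT and 7.43 to 9.44 CPM in libraries labelled *Rag1*-/-, *Ncr1* at 0.0911 to 0.431 CPM against 0.899 to 0.994 CPM, and *Cpa3* at 23.5 to 33.8 CPM against 10.2 to 21.2 CPM. None of these defining markers was at 0, and *Il1rl1*, the interleukin 33 receptor, overlapped between the groups at 8.17 to 52.1 CPM against 40.4 to 161 CPM.

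Against these sums, the direction of the class I genes depended on the reference. Relative to the leukocyte sum of the same library, 9 of the 10 genes were lower in both libraries labelled *Rag1*-/- than in any WT library. *Psmb8* overlapped. The leukocyte sum itself was higher in both libraries labelled *Rag1*-/- than in any WT library. How many of all genes lay lower relative to it was not computed, so the count does not set these 10 genes apart. *H2-K1* was 0.459, 0.222 and 0.182 of the leukocyte sum in WT and 0.160 and 0.178 in pools labelled *Rag1*-/-. Among the WT libraries the leukocyte sum spanned 2.20-fold, and the 10 genes spanned from 1.04-fold (*H2-D1*) to 1.77-fold (*Nlrc5*). Relative to the summed keratinocyte genes, all 10 were higher in both libraries labelled *Rag1*-/-. That sum was lower in both of these libraries than in any WT library, and the share of all genes was not computed either. Refitted with scaling on the leukocyte genes, which shifts all genes by a median of -2.05 on the log2 scale, all 10 log2 fold changes were negative, from -1.76 to -0.54. In that fit 0 of the 10 were called higher and 2 lower, against 0.0894% and 68.6% of all genes tested. The called genes were *Tap2* (-1.46, adjusted p = 0.0466, edgeR) and *Nlrc5* (-1.76, adjusted p = 0.0195, edgeR). The part of the cell mixture in the differences of the class I genes was not tested.

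**Figure D5:**
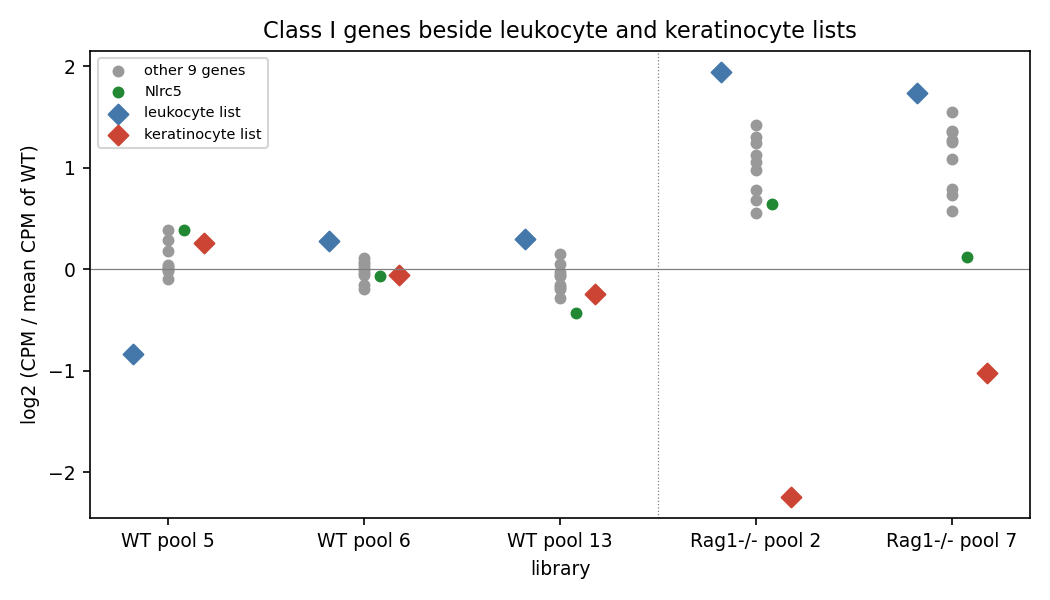
Level of each class I gene, of the summed leukocyte list and of the summed keratinocyte list in each library, as log2 of CPM over the WT mean; grey and green points are single genes and diamonds are sums. In both Rag1-/- libraries the leukocyte sum lies above all 10 class I genes and the keratinocyte sum below them.

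The calls depended on single libraries. Without any 1 of the 3 WT pools, edgeR called 0 genes of any kind. In those 3 fits 9 or 10 of the 10 class I genes had an unadjusted p under 0.05, against 19.2% to 20.9% of all genes tested. All 10 kept a positive log2 fold change. Without pool 2 or without pool 7, 1 library labelled *Rag1*-/- was left, so effect sizes alone are given here. All 10 log2 fold changes were positive in both fits, with medians of 1.24 without pool 2 and 0.96 without pool 7. The log2 fold change of *H2-T23* was 1.34 without pool 2 and 0.92, under the fold threshold, without pool 7. That of *Tapbpl* was 1.64 and 1.42, and that of *Ifngr1* 1.74 and 1.45, in the same order. The labels say that mice were pooled but name no shared day or batch, and p-values measure the spread between these pools.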

How the data were processed

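RNA of each pool was sequenced as single reads of 50 bases after a poly(A) library preparation that does not mark strand. Per the submitters' processing notes and methods, reads were aligned with STAR 2.5 to GRCm38 and counted with featureCounts 1.5.0-p1, and the authors used DESeq2 1.8.2. The methods and the labels name different annotation releases, and the labels also list GRCm39. The authors deposited raw counts per gene and a second table of normalised signal, counts scaled between libraries in DESeq2. The table has 0 unnamed rows.

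CPM were computed from the deposited counts over each library's total. Genes were filtered with filterByExpr, scaled by TMM and tested with edgeR 4.0.16 (quasi-likelihood test, Benjamini-Hochberg over 19011 genes) with genotype alone, all 5 libraries. DESeq2 1.42.0 and limma 3.58.1 (on log2 of the deposited signal plus 1) were alternatives, beside other scalings and filters and leaving out each library. A floor of 3 counts is 0.373 CPM in *Rag1*-/- pool 2 and 0.0760 to 0.0911 CPM in the other libraries, for counting error only. Scripts were tested on simulated data.

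All 10 members were described. Of the pathway lists, genes past the thresholds and *Psmb5*, *Psmb6*, *Psmb7*, *Psmb10*, *Psme1*, *Psme2*, *Erap1*, *Tapbpl*, *Irf1*, *Rfx5* and *Ciita* were named, and some genes of the lists are counted but not reported here by name. Members and lists were chosen with earlier results of these data known. Promoters were RefSeq windows (GRCm38.p6), and transcript lengths, overlaps and shared 50-base stretches came from GENCODE M21.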

Additional observations from a re-analysis of the deposited data

How the results depend on the processing

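Scaling on leukocyte genes reversed the median log2 fold change of the 10 class I genes (-0.98) and of the other pathway lists (-1.71). It left 17 genes called higher and 13046 lower among all genes, 0 of the 10 higher and 2 lower, and 0 of the other pathway genes higher and 43 lower. Single values under it were -0.76 for *H2-K1*, -0.78 for *H2-D1*, -0.70 for *B2m*, -1.36 for *Tap1*, -1.46 for *Tap2*, -1.34 for *Tapbp*, -0.54 for *Psmb8*, -1.07 for *Psmb9*, -1.76 for *Nlrc5*, -0.88 for *H2-T23*, -1.03 for *Psmb10*, -0.33 for *Tapbpl*, -0.24 for *Ifngr1*, -0.69 for *Ifnar1* and -0.25 for *Socs1*, while *H2-Q6* (0.33) and *H2-Q7* (0.08) stayed above 0 without passing the test.

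With no filter 1157 genes were called higher and 1488 lower, and the median of the other pathway lists was 0.28. A minimum of 10 counts in every library gave 641 lower, and DESeq2 gave 1197 higher and 1257 lower. With limma on the deposited signal 0 genes were called in either direction, including 0 of the 10 and 0 of the other pathway genes. There 9 of the 10 had an unadjusted p under 0.05, against 4638 of all 18962 genes tested (24.5%). The cause was not tested. Leaving out each library gave 0 to 814 genes higher and 0 to 1595 lower, 0 to 4 of the 10 and 0 to 9 of the other pathway genes called higher, and medians of 0.96 to 1.24 and 0.18 to 0.50. The differences in log2 ratio were 1.17 to 2.08 for *Psmb8* to *Psmb5*, 0.69 to 1.37 for *Psmb9* to *Psmb6* and 0.84 to 1.24 for *Psmb10* to *Psmb7*. Without a *Rag1*-/- pool the lone library is assumed to vary like the WT ones. *Psmb9* passed with no filter, with the minimum of 10 counts, with DESeq2 and after thinning to the shallowest library, which was added after seeing the data. No paired analysis was possible because the groups share no replicate number. The 8050562 counts of *Rag1*-/- pool 2 and the number of libraries limit precision.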
